A study of Mus musculus with 11 samples.

Results

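The 10 genes described here are transcriptional regulators of fat burning and mitochondrial content in the heart, and they were followed by bulk RNA-seq in 11 libraries made from heart apex of C57BL/6 mice. They are 10 of the 55414 genes in the deposited tables. The nuclear receptors Ppara, Ppard, Pparg, Rxra, Esrra and Esrrg and the coactivators Ppargc1a and Ppargc1b were taken by symbol as a family of 8. The other 2, Nr2c2 and Lcor, were selected on measured values, because they were low after FLASH irradiation, so their values are given as a description with no test. Each gene was found by its Ensembl identifier with the version dropped, and all 10 were measured in all 11 libraries and passed the filter on low counts that left 14556 genes for testing.

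The libraries fell into 3 groups that shared strain and tissue. The 4 NR libraries came from hearts that were not irradiated, the 4 S-PRT libraries from hearts given standard proton radiotherapy focally to the apex, and the 3 F-PRT libraries (replicates 2, 3 and 4) from hearts given proton radiotherapy in the FLASH mode, in which the dose is delivered at a very high rate. The dose was a single 40 Gy in both irradiated groups, and tissue was taken 2 weeks later. The labels give neither age nor sex. Nor do they state that each library is a different mouse, and the p-values therefore speak only to library-to-library spread, part of which may be technical. In bulk tissue, fewer cells of a type and less RNA per cell cannot be told apart.

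PPARs are nuclear receptors that respond to fatty acids and their derivatives and bind DNA as a pair with a retinoid X receptor such as Rxra. In heart muscle, Ppara and Ppard act on genes for fatty acid uptake and oxidation, while Pparg is best known as the regulator of adipocyte formation. The oestrogen-related receptors Esrra and Esrrg have no known natural hormone and act on genes of the citric acid cycle and the respiratory chain. Ppargc1a and Ppargc1b encode PGC-1 alpha and PGC-1 beta, coactivators that do not bind DNA themselves and are brought to these genes by PPARs and ERRs. Nr2c2 encodes testicular receptor 4, an orphan nuclear receptor, and Lcor encodes a ligand-dependent corepressor that binds nuclear receptors and recruits silencing factors.

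Promoter sequence is shown for the 3 family members that passed the test after F-PRT, Ppara, Ppargc1a and Esrrg, and for Nr2c2, which was selected on its low level there. Each run is 300 bases, from 250 before to 50 after a start site, taken from RefSeq on GRCm38.p6 and written 5′ to 3′ on the gene's strand, with motif matches in capitals. Ppara lies at chr15:85735526-85735825 on the plus strand, Nr2c2 at chr6:92092183-92092482 on the plus strand, Ppargc1a at chr5:51567676-51567975 on the minus strand, and the first of the 4 listed Esrrg starts at chr1:187608756-187609055 on the plus strand.
Ppara: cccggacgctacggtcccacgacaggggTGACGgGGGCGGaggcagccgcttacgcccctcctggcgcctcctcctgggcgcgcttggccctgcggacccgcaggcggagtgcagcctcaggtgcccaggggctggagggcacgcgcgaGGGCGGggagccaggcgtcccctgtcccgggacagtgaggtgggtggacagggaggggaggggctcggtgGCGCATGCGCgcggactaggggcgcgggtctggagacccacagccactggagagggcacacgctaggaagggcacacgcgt
Nr2c2: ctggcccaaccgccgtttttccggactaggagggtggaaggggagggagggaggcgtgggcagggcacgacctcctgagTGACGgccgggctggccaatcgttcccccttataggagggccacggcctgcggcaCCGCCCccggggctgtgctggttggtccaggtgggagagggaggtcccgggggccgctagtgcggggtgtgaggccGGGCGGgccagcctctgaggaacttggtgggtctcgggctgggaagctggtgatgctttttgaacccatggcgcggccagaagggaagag
Ppargc1a: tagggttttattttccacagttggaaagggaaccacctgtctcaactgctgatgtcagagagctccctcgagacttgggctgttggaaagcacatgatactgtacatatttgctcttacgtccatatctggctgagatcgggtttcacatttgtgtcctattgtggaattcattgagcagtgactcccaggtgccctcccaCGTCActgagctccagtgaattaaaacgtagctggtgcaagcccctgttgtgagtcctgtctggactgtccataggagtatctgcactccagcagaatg
Esrrg: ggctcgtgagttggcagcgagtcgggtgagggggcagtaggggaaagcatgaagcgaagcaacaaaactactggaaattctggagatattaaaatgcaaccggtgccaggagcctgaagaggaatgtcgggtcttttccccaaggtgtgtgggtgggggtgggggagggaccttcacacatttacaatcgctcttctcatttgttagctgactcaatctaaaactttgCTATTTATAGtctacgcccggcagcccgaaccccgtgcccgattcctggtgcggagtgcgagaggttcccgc
The motifs were searched on both strands in 15 promoters of 9 members; Ppargc1b has no entry in the table. The CREB half-site TGACG, which is found in 20.81% of the 32851 promoters listed for the mouse, was present in Ppara, Nr2c2, Ppargc1a and Ppard. GCGCATGCGC, the palindromic NRF1 motif, is in 0.97% of all promoters and was found in Ppara alone among the members. CTANNNNTAG, a MEF2 element, is in 3.69% and was found in the first Esrrg promoter alone. The GC box GGGCGG, which can overlap other matches, is in 35.66% of promoters and in 10 of the 15 from the members. The half-site AGGTCA, in 16.26% of promoters, was found in Pparg and Rxra, and neither the ERR element TCAAGGTCA (0.42%) nor the DR1 pair of half-sites (0.04%) was found in any of the 15. A match describes these letters only and is not a measured binding site.

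Depth ran from 20758170 to 40136578 expected counts per library, and mitochondrial transcripts took 24.2% to 43.8% of them. The lowest mitochondrial share was in F-PRT replicate 4, with 31.6% and 42.3% in F-PRT replicates 2 and 3. F-PRT replicate 4 also had the largest share of counts without a matched symbol (0.3555%). Its correlation with transcript length, described further on, was the most negative (−0.56). The tissue label was checked against markers. Cardiomyocyte markers summed to 27228 to 38001 TPM in NR, 27414 to 31873 in S-PRT and 30677 to 54170 in F-PRT. Macrophage markers summed to 49.5 to 108 TPM in NR, 75.0 to 184 in S-PRT and 64.9 to 179 in F-PRT, and endothelial markers to 66.1 to 151, 41.8 to 85.0 and 40.13 to 110. Fibroblast markers summed to 119 to 298, 127 to 195 and 71.6 to 222 TPM. White adipocyte markers stayed at or under 0.91 TPM, skeletal muscle markers at or under 0.74 and atrial markers at or under 3.76, and of the 2 brown adipocyte markers Ucp1 was at 0 in all 11 libraries while Cidea was at 13.6 to 22.9 TPM in NR, 18.8 to 22.5 in S-PRT and 20.2 to 33.4 in F-PRT. By the edgeR test, 2 of 6 endothelial markers were lower in each irradiated group, and after F-PRT 1 of 6 fibroblast and 1 of 7 cardiomyocyte markers were lower and 2 of 6 macrophage markers higher, as were the single atrial marker and the single brown adipocyte marker that could be tested (log2 changes of 1.01 and 0.56). Over all tested genes 0.419% were called lower after S-PRT, and 8.67% lower and 10.8% higher after F-PRT. The part of these cell types and of the mitochondrial share in the results that follow was not tested.

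In unirradiated apex the 10 regulators spanned levels from Esrra down to Lcor, compared here in TPM, which is per transcript length. Esrra, the receptor most tied to mitochondrial genes, stood highest at 73.1 ± 12.2 TPM (SD, n = 4). Rxra (11.1 ± 1.61), Ppard (9.65 ± 2.64) and Ppargc1a (9.46 ± 0.874) followed and did not differ from one another beyond their spread. Esrrg (6.67 ± 1.07) and Ppara (6.04 ± 0.737) also lay within each other's spread. Ppargc1b (3.22 ± 0.411), Pparg (2.91 ± 0.898) and Nr2c2 (2.34 ± 0.515) came next, each within the spread of its neighbour, and Lcor was lowest at 0.818 ± 0.128 TPM. After S-PRT the 10 means kept the NR order, from Esrra at 58.0 ± 4.38 TPM (SD, n = 4) to Lcor at 0.545 ± 0.146. After F-PRT the order of the upper 4 was the same in mean TPM, but Ppara, at 1.90 ± 0.930 TPM (SD, n = 3), lay below the means of Pparg (2.43 ± 1.44) and Ppargc1b (2.38 ± 0.584), within their spread.

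**Figure D1:**
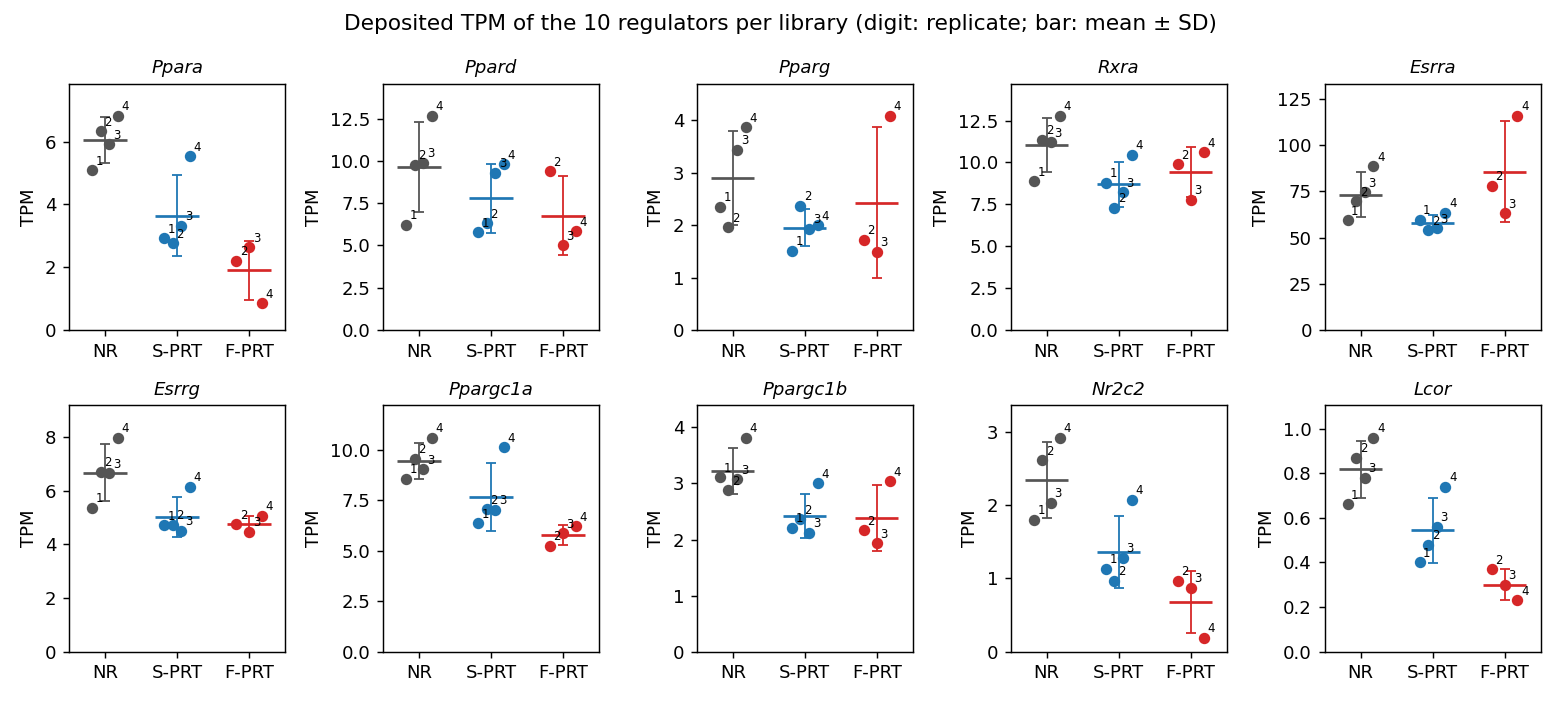
Level of each of the 10 regulators in TPM (vertical axis, starting at 0) in NR, S-PRT and F-PRT hearts; each point is a library, and the bar and whiskers give the group's mean and SD. The 3 F-PRT points of Ppara lie between 0.85 and 2.63 TPM, under every S-PRT and NR point, while Esrra has an F-PRT point at 115.95 TPM above all others.

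Ppara showed the strongest fall among the family of 8. Its level was 5.08, 6.33, 5.92 and 6.82 TPM in the NR libraries, 2.92, 2.76, 3.32 and 5.54 TPM in S-PRT and 2.21, 2.63 and 0.85 TPM in F-PRT. All F-PRT libraries lay below all others, and F-PRT replicate 4 was the lowest. How many of all genes had every F-PRT library below every S-PRT library was not counted, here or for the genes that follow. In CPM, counts scaled to library size with TMM factors, Ppara stood at 18.2 ± 1.94 in the 4 NR libraries, at 12.5 ± 1.42 in the 4 S-PRT libraries and at 6.62 ± 4.49 (all SD) in the 3 F-PRT libraries. F-PRT was below NR by a log2 fold change of −1.51 ± 0.34 (SE), which passed edgeR's quasi-likelihood test with an adjusted p of 0.014. S-PRT was below NR by −0.54 ± 0.29, which did not pass in the fit of all 11 libraries (edgeR adjusted p = 0.35). In CPM all 4 S-PRT libraries lay below all 4 NR libraries, as for 6.71% of all tested genes. Same-numbered NR and S-PRT libraries deviated together, as did some differently numbered ones, and with the replicate number as a block the same log2 change of −0.54 passed with an edgeR adjusted p of 0.014. In a fit of the NR and S-PRT libraries alone, without the block, the edgeR adjusted p was 0.023. Between the irradiated groups, F-PRT lay below S-PRT by −0.97 ± 0.34, with an edgeR adjusted p of 0.22 and a 95% interval from −1.69 to −0.24 that was not adjusted for the number of genes. Without F-PRT replicate 3 that difference was −1.59 with an edgeR adjusted p of 0.033. Over every setting run the difference lay between −1.59 and −0.50. In CPM, F-PRT replicate 3 (11.4) stood close to S-PRT replicate 1 (11.6). The fall against NR did not rest on F-PRT replicate 4, without which it was −1.09 (edgeR adjusted p = 0.016).

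The other PPARs and the shared partner did not pass the test in either irradiated group. Ppard, which acts beside Ppara in heart muscle, was at 6.24, 9.78, 9.89 and 12.68 TPM in NR, 5.78, 6.32, 9.31 and 9.80 in S-PRT and 9.41, 5.03 and 5.83 in F-PRT. These ranges overlapped throughout, and the log2 change from NR was 0.02 ± 0.08 in S-PRT and −0.19 ± 0.09 in F-PRT (edgeR adjusted p = 0.94 and 0.16), the former turning to −0.13 with scaling by library size alone. Pparg, the adipocyte regulator, was at 2.35, 1.96, 3.44 and 3.87 TPM in NR, 1.51, 2.37, 1.93 and 2.00 in S-PRT and 1.72, 1.49 and 4.09 in F-PRT. Its F-PRT libraries held both the lowest level of the 11, in replicate 3, and the highest, in replicate 4, and the log2 change was −0.32 ± 0.23 in S-PRT and −0.27 ± 0.25 in F-PRT (edgeR adjusted p = 0.50 and 0.47).

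Within the PPAR family the balance of transcripts moved away from Ppara. Ppara made up 29.2% to 37.2% of the summed PPAR TPM in NR and 22.8% to 32.0% in S-PRT. In F-PRT it made up 16.6%, 28.7% and 7.89%, each below every NR library. Ppard carried the largest PPAR share in all 11 libraries, and Pparg reached 38.0% in F-PRT replicate 4 against at most 17.9% in NR. In that library white adipocyte markers summed to 0.91 TPM, macrophage markers to 145, endothelial markers to 110 and fibroblast markers to 222. The same sums were 0.85, 179, 66.5 and 126 TPM in F-PRT replicate 2, where Pparg was at 1.72 TPM. The part of these cell types in the Pparg value was not tested.

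Rxra, the partner in the PPAR pair, was at 8.89, 11.37, 11.22 and 12.79 TPM in NR, 8.78, 7.31, 8.22 and 10.47 in S-PRT and 9.91, 7.78 and 10.62 in F-PRT. The TPM ranges overlapped. In CPM all 3 F-PRT libraries (46.8 ± 2.21) lay below all 4 NR libraries (54.8 ± 4.18), as for 13.9% of all tested genes. The log2 change of −0.23 ± 0.09 did not pass (edgeR adjusted p = 0.098), and in S-PRT it was −0.14 ± 0.09 (edgeR adjusted p = 0.42). Its relative Rxrb rose after F-PRT, by 0.29 ± 0.07 on the log2 scale (edgeR adjusted p = 0.019; 0.054, 0.053 and 0.050 without NR replicate 1, NR replicate 2 and F-PRT replicate 4), and with the length trend removed it was at 0.23 and lost the call (edgeR adjusted p = 0.093). Rxrg, the RXR with the highest TPM, was at 0.20 ± 0.10 after F-PRT (edgeR adjusted p = 0.16). Rxra took 14.9% to 17.7% of the summed RXR TPM in F-PRT and 19.9% to 23.6% in NR, with no overlap. The log2 change of Rxra after F-PRT turned to 0.03 once a trend with transcript length, described further on, was removed.

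The ERRs had log2 changes of opposite sign after F-PRT, and of the members Esrra and Esrrg, Esrrg alone passed the test. Esrrg, the receptor of the family linked to oxidative muscle and the perinatal heart, was at 5.36, 6.70, 6.64 and 7.98 TPM in NR, 4.72, 4.73, 4.50 and 6.14 in S-PRT and 4.75, 4.47 and 5.07 in F-PRT. All 3 F-PRT libraries lay below all 4 NR libraries, and S-PRT libraries overlapped both. Esrrg fell after F-PRT by a log2 fold change of −0.49 ± 0.13 (edgeR adjusted p = 0.021) and was at −0.21 ± 0.11 after S-PRT (edgeR adjusted p = 0.35). The call was lost without F-PRT replicate 4, F-PRT replicate 2, NR replicate 1 or NR replicate 2, with log2 changes of −0.39, −0.41, −0.47 and −0.45 and edgeR adjusted p of 0.078, 0.074, 0.058 and 0.053. Esrra was at 59.51, 69.58, 74.61 and 88.73 TPM in NR, 59.58, 54.02, 55.01 and 63.51 in S-PRT and 77.97, 63.06 and 115.95 in F-PRT. The highest value was in F-PRT replicate 4 and the other two F-PRT libraries lay inside the NR range, with log2 changes of 0.25 ± 0.12 in F-PRT and −0.09 ± 0.11 in S-PRT (edgeR adjusted p = 0.15 and 0.74).

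As a share of the summed ERR TPM, Esrrg was 7.58% to 8.19% in NR, 6.93% to 8.22% in S-PRT and 4.07% to 6.25% in F-PRT. Esrra took 85.1% to 86.1% in NR and 88.2% to 93.1% in F-PRT, so the F-PRT libraries lay outside the NR range for both. The shares were not adjusted for the trend with transcript length. With that trend removed, the log2 changes of Esrra and Esrrg after F-PRT were 0.15 and −0.23 (edgeR adjusted p = 0.56 and 0.36). Esrrb, the relative that is not a member, had a log2 change of −0.40 ± 0.15 after F-PRT (edgeR adjusted p = 0.085) and −0.25 ± 0.14 after S-PRT (edgeR adjusted p = 0.36).

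Of the PGC-1 coactivators, Ppargc1a fell after F-PRT. Its level was 8.58, 9.56, 9.06 and 10.62 TPM in NR, 6.36, 7.07, 7.04 and 10.14 in S-PRT and 5.26, 5.87 and 6.21 in F-PRT. In TPM, every F-PRT library lay below every NR and S-PRT library, and 3 of the 4 S-PRT libraries lay below NR. In CPM the levels were 56.6 ± 4.84 in NR, 52.2 ± 5.38 after S-PRT and 38.8 ± 9.37 after F-PRT (SD). There F-PRT stayed below NR, as for 13.9% of all tested genes, but overlapped S-PRT. The log2 fold change after F-PRT was −0.55 ± 0.14 (edgeR adjusted p = 0.021), and after S-PRT it was −0.12 ± 0.13 (edgeR adjusted p = 0.68). Between the irradiated groups it was −0.43 ± 0.14 (edgeR adjusted p = 0.21), and −0.65 with an edgeR adjusted p of 0.046 without F-PRT replicate 3. Over every setting run that difference lay between −0.65 and −0.19. The call against NR was lost without F-PRT replicate 2, F-PRT replicate 4 or NR replicate 1, with log2 changes of −0.42, −0.49 and −0.49 and edgeR adjusted p of 0.074, 0.074 and 0.062.

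Ppargc1b, which overlaps in function with Ppargc1a, was at 3.11, 2.88, 3.08 and 3.82 TPM in NR, 2.21, 2.36, 2.12 and 3.00 in S-PRT and 2.17, 1.93 and 3.04 in F-PRT. A single library of each irradiated group reached the NR range in TPM. In CPM all 3 F-PRT libraries (8.64 ± 1.24) lay below NR (11.6 ± 1.67), as for 13.9% of all tested genes. Its log2 change of −0.42 ± 0.14 after F-PRT missed the threshold (edgeR adjusted p = 0.054), and after S-PRT it was −0.19 ± 0.13 (edgeR adjusted p = 0.46). Pprc1, the PGC-1 related coactivator, and Perm1, a muscle regulator acting with PGC-1 and the ERRs, were at −0.24 ± 0.15 and −0.22 ± 0.12 after F-PRT (edgeR adjusted p = 0.25 and 0.21). Ppargc1a made up 60.4% to 65.2% of the summed PGC-1 TPM in NR, 63.7% to 67.3% in S-PRT and 51.9%, 62.7% and 46.6% in F-PRT.

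The files also give a mean transcript length per gene, weighted by the abundance of its isoforms. For Ppargc1a it was 6325.8, 6397.0 and 6464.0 bases in F-PRT, above all NR libraries (5547.3 to 6222.0) and all S-PRT libraries (5535.7 to 6157.1). For Lcor it was 4579.4, 3778.1 and 3783.5 bases in F-PRT against 4768.5 to 4831.2 in NR, and S-PRT spanned 4114.4 to 5089.5, overlapping both. These lengths rest on isoform estimates from 824 to 2313 expected counts for Ppargc1a and 26 to 172 for Lcor, and no test was made of them. How many of all genes had lengths that separate the groups in this way was not counted. TPM is per transcript length, so a longer estimate gives a lower TPM at the same count, while CPM does not use it.

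Nr2c2 and Lcor are described without a test, since their low level after F-PRT chose them. Nr2c2 was at 1.80, 2.61, 2.03 and 2.92 TPM in NR, 1.13, 0.97, 1.28 and 2.07 in S-PRT and 0.97, 0.87 and 0.19 in F-PRT. F-PRT replicate 4, at 38.97 expected counts, was far below the rest, and S-PRT replicate 4 was the single S-PRT library inside the NR range in TPM. In CPM every S-PRT library (at most 9.547) lay below every NR library (at least 11.141), as for 6.71% of all tested genes. The log2 fold change of Nr2c2 was −1.82 ± 0.36 after F-PRT, −0.65 ± 0.30 after S-PRT and −1.17 ± 0.36 between F-PRT and S-PRT. In 9 of 11 libraries its estimated count was a fraction, so reads shared with another locus were split by the estimate and the level is uncertain. Its close relative Nr2c1, testicular receptor 2, fell after F-PRT by −0.54 ± 0.16 on the log2 scale (edgeR adjusted p = 0.033), and the edgeR adjusted p was 0.060 to 0.087 without NR replicate 1, 2 or 3 or F-PRT replicate 3 or 4, with log2 changes from −0.58 to −0.41. With the length trend removed Nr2c1 was at −0.45 and lost the call (edgeR adjusted p = 0.14).

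Lcor was at 0.66, 0.87, 0.78 and 0.96 TPM in NR, 0.40, 0.48, 0.56 and 0.74 in S-PRT and 0.37, 0.30 and 0.23 in F-PRT. All F-PRT libraries lay below all S-PRT libraries, and S-PRT replicate 4 alone of its group reached into the NR range in TPM. In CPM every S-PRT library (at most 3.198) lay below every NR library (at least 3.585), as for 6.71% of all tested genes. The expected counts behind these levels were 100 to 172 in NR, 53 to 135 in S-PRT and 41, 26 and 26 in F-PRT. The log2 fold change was −1.70 ± 0.23 after F-PRT, −0.45 ± 0.19 after S-PRT and −1.25 ± 0.23 between F-PRT and S-PRT. Lcorl, the Lcor-like gene, was at −0.26 ± 0.17 after F-PRT (edgeR adjusted p = 0.29). The estimated count of Lcorl was whole in only 3 of 11 libraries, so its level is uncertain in the same way as that of Nr2c2.

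**Figure D2:**
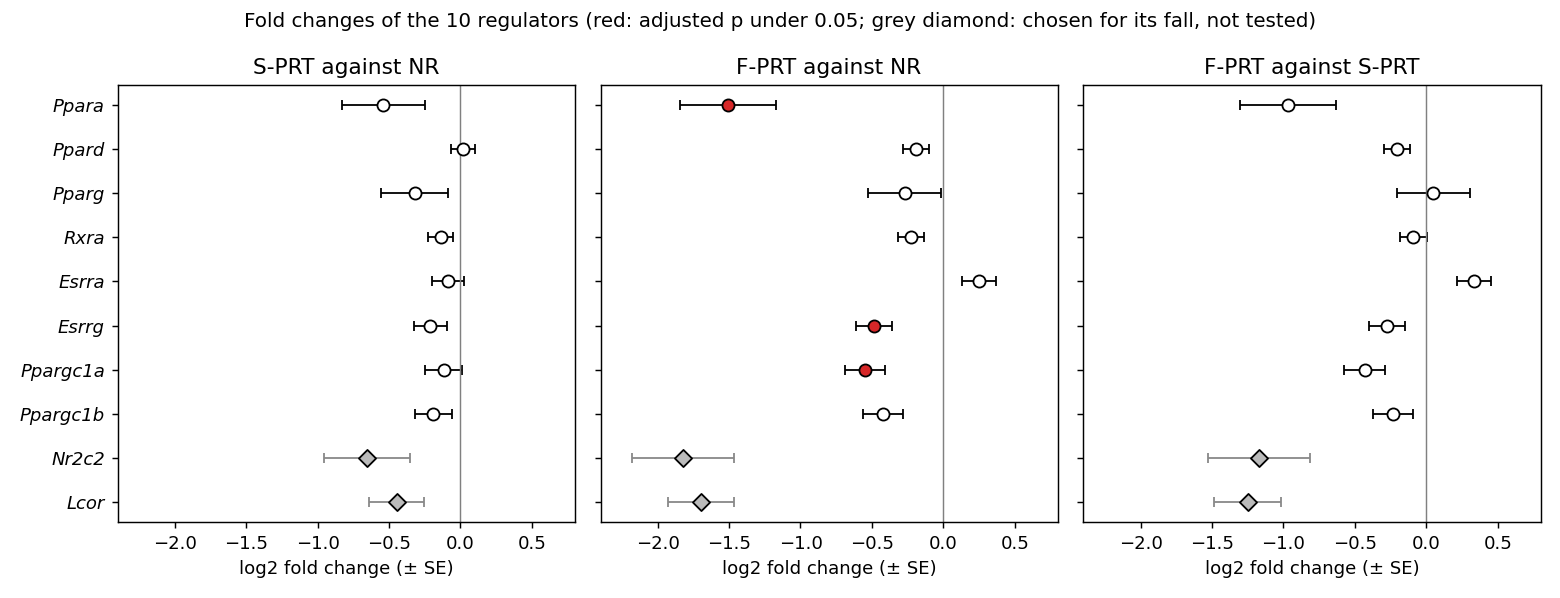
Log2 fold change (horizontal axis) of the 10 regulators in the 3 comparisons, with bars of 1 SE from the edgeR fit of 11 libraries; red points passed the adjusted threshold, white points did not, and grey diamonds are Nr2c2 and Lcor, which were selected on their fall and not tested. Ppara (−1.51), Ppargc1a (−0.55) and Esrrg (−0.49) are red in F-PRT against NR, and no point is red in the other 2 panels.

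Counted over the family, 3 of 8 members fell after F-PRT and 0 of 8 rose, where 8.67% of all 14556 genes were called lower, 10.8% higher and 19.5% in either direction. The members were chosen with earlier results of these data known, so these counts describe the set and are not an independent comparison with all genes. Of the 7 relatives left outside the set, 1 rose (Rxrb) and 1 fell (Nr2c1). In CPM, 5 of the 8 had every F-PRT library below every NR library, against 13.9% of all genes. Without NR replicate 1, F-PRT replicate 2 or F-PRT replicate 4, 1 of the 8, Ppara, was called. Those fits called 1408 of 14519, 1773 of 14779 and 1382 of 14792 tested genes. The median log2 change of the 8 was −0.35, beside 0.03 over all tested genes. After S-PRT, 0 of 8 were called, where 0.419% of genes were called lower, 0.872% higher and 1.29% in either direction. Every S-PRT library lay below every NR library in CPM for 2 of the 8, Ppara and Esrrg, against 6.71% of all genes. With the replicate block, 1 of 8 (Ppara) was called against a background of 9.74% of 14069 genes. Between F-PRT and S-PRT, 0 of 8 were called and the background was 0%. There 2315 genes had an unadjusted edgeR p under 0.05, and DESeq2 called 168. Without F-PRT replicate 3, 2 of the 8 were called, where 103 of 14873 tested genes were. The comparisons with NR share the same 4 NR libraries.

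Between the irradiated groups the 8 family members stood as follows beside Ppara and Ppargc1a. Esrra was higher after F-PRT by 0.34 ± 0.12 on the log2 scale (95% interval 0.08 to 0.60, edgeR adjusted p = 0.23), with overlapping libraries. Esrrg and Ppargc1b were at −0.28 ± 0.13 and −0.23 ± 0.14 (edgeR adjusted p = 0.31 and 0.44). Ppard was at −0.21 ± 0.09 with a 95% interval from −0.40 to −0.01 (edgeR adjusted p = 0.30). Rxra and Pparg, at −0.09 ± 0.09 and 0.05 ± 0.26 (edgeR adjusted p = 0.66 and 0.95), had signs that turned under other settings, Rxra to 0.094 with library size scaling and Pparg to −0.39 without F-PRT replicate 4. Intervals as wide as −0.51 to 0.60 for Pparg leave room for differences of either sign. Among the relatives, Rxrb was at 0.22 ± 0.07 (edgeR adjusted p = 0.21). Lcorl and Nr2c1 were at −0.38 ± 0.17 and −0.25 ± 0.16, and Rxrg, Esrrb, Pprc1 and Perm1 lay between −0.14 and 0.08 with edgeR adjusted p from 0.67 to 0.90 and signs that turned under at least 1 setting.

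After S-PRT, 0 of the 7 relatives passed the test. Pprc1 and Nr2c1 were both at −0.29 ± 0.14 against NR (edgeR adjusted p = 0.27 and 0.30) and Perm1 at −0.15 ± 0.11 (edgeR adjusted p = 0.52). Rxrb, Rxrg and Lcorl were at 0.06 ± 0.07, 0.11 ± 0.09 and 0.13 ± 0.15 (edgeR adjusted p = 0.66, 0.53 and 0.71) and turned below 0 with library size scaling.

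Fold changes in these libraries moved with transcript length, which touches several of the regulators. Across genes, the Spearman correlation between transcript length and a gene's log2 CPM, centred over libraries, was 0.34 to 0.42 in the 4 NR libraries, −0.26, −0.14, 0.03 and 0.27 in S-PRT and −0.29, −0.16 and −0.56 in F-PRT. Ppargc1a, with a mean transcript length of 5992.1 bases, lies at the percentile 93.4 of tested genes, Nr2c2 at 89.2, Esrrg at 88.3, Rxra at 87.5 and Lcor at 84.4. Ppara, with 3139 bases, lies at the percentile 65 and Esrra at 39.5. When the length trend of each library was removed, Ppara stayed lower after F-PRT by −1.44 (edgeR adjusted p = 0.041), so 1 of 8 was called where 2.23% of all genes were. Esrrg and Ppargc1a then stood at −0.23 and −0.24 and lost their calls (edgeR adjusted p = 0.36 and 0.39). Ppargc1b stood at −0.29 (edgeR adjusted p = 0.34), and Nr2c2 and Lcor kept log2 changes of −1.58 and −1.48. The source of the trend was not tested.

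**Figure D3:**
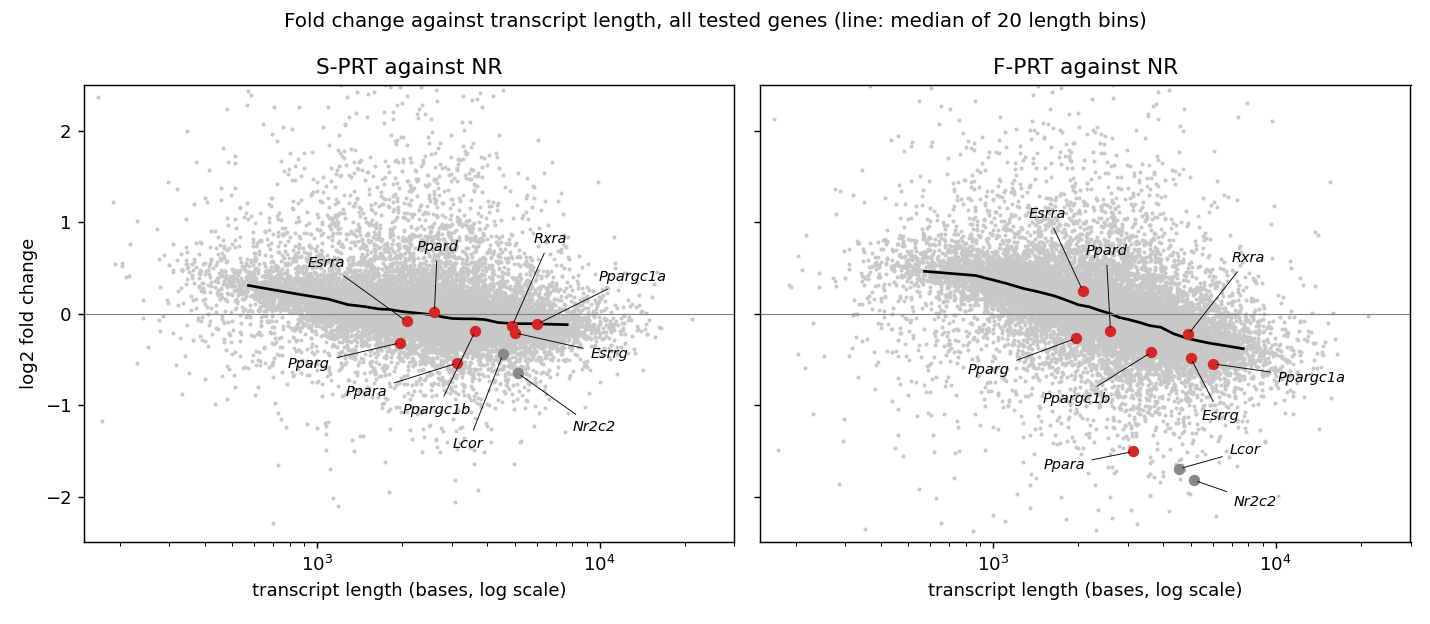
Log2 fold change (vertical axis) against mean transcript length in bases (horizontal log axis) for all tested genes as small grey points, with the 8 family members in red, Nr2c2 and Lcor in darker grey and a line through the medians of 20 length bins; the 52 and 64 genes beyond 2.5 in either direction in the S-PRT and F-PRT panels are not drawn. The line slopes down in both panels and more in F-PRT. There Rxra sits near it at the long end, Esrrg and Ppargc1a lie somewhat below it, and Ppara, Nr2c2 and Lcor lie far below.

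**Figure D4:**
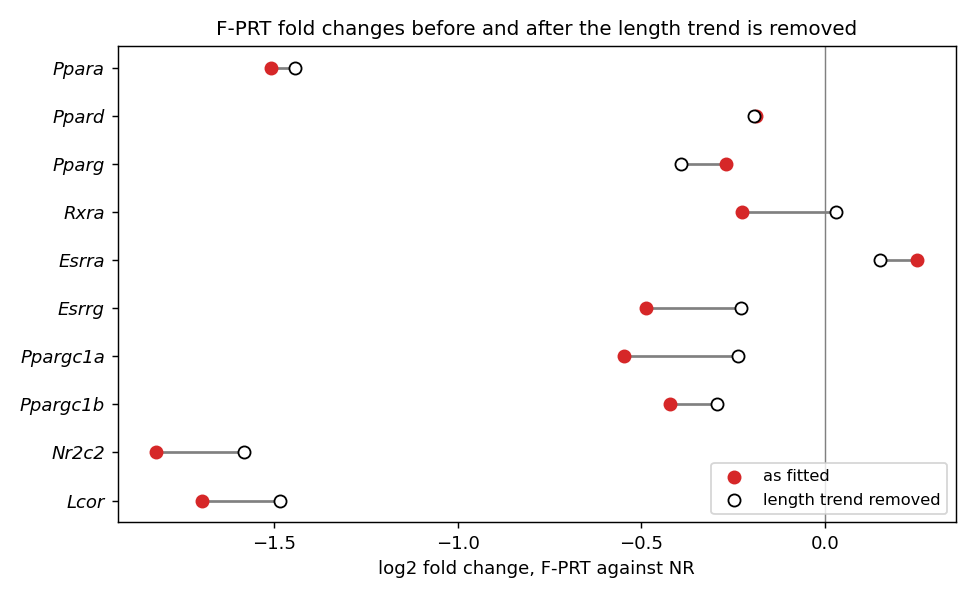
Log2 fold change of the 10 regulators in F-PRT against NR (horizontal axis) as fitted and with the length trend removed. Ppara moves from −1.51 to −1.44, whereas Esrrg moves from −0.49 to −0.23 and Ppargc1a from −0.55 to −0.24.

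Lists of genes that work with or under these regulators were examined beside them, in F-PRT first. The lists too were chosen with earlier results of these data known, so their counts are descriptions. Of 22 cofactors and corepressors of nuclear receptors, 11 fell and 1 rose, where 8.67% of all tested genes fell and 10.8% rose, and the median log2 change was −0.38. Nrip1, a corepressor of PPARs and ERRs also called RIP140, fell by 0.58 (edgeR adjusted p = 0.011), the steroid receptor coactivator Ncoa1 by 0.42 (edgeR adjusted p = 0.016) and Tbl1x, a part of the NCoR corepressor complex, by 0.55 (edgeR adjusted p = 0.017). The arginine methyltransferase Prmt1, which methylates PGC-1 alpha, rose by 0.38 (edgeR adjusted p = 0.011). The list holds activating and repressing cofactors, and both kinds were among those that fell. Without NR replicate 1 or F-PRT replicate 4, 6 and 5 of the 22 were called. Those fits called 1408 of 14519 and 1382 of 14792 tested genes. With the length trend removed 0 of the 22 were called, against 2.23% of all genes, and the median was −0.12. In S-PRT 0 of the 22 passed, with a median of −0.10 beside 0.0068 over all tested genes.

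Of 17 genes acting upstream of PGC-1, such as AMPK subunits and MEF2 factors, 4 fell after F-PRT and 0 rose, against 8.67% and 10.8% of all tested genes. Prkaa2, the AMPK catalytic subunit alpha 2 of muscle, fell by 0.77 on the log2 scale (edgeR adjusted p = 0.0079). The MEF2 transcription factors Mef2d, Mef2c and Mef2a fell by 0.50, 0.35 and 0.45 (edgeR adjusted p = 0.0046, 0.019 and 0.040). In S-PRT Mef2d was the single call of the list, at −0.32 ± 0.07 (edgeR adjusted p = 0.044), and leaving out any NR or S-PRT library or F-PRT replicate 2 took its edgeR adjusted p to between 0.054 and 0.17. The F-PRT call of Mef2c was lost without NR replicate 1, F-PRT replicate 2 or F-PRT replicate 4 (edgeR adjusted p = 0.055, 0.061 and 0.055). Without NR replicate 1 or F-PRT replicate 2, 2 of the 17 were called, where 1408 of 14519 and 1773 of 14779 tested genes were. With the length trend removed 0 of the 17 were called, and the median log2 change moved from −0.20 to −0.04.

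Among 16 PPAR-regulated genes of lipid uptake and storage, 4 fell after F-PRT, against 8.67% of all tested genes, and the median log2 change was 0.01. The lipid droplet gene Plin4 was at −0.64 ± 0.10, the acyl-CoA synthetase Acsl1 at −0.60 ± 0.12 and the fatty acid transporter Cd36 at −0.52 ± 0.13 (edgeR adjusted p = 0.0046, 0.011 and 0.018). The fourth was Vldlr, a lipoprotein receptor. Without F-PRT replicate 2 Cd36 was at −0.39 with an edgeR adjusted p of 0.058, and with the length trend removed 0 of the 16 were called and the median was −0.19. In S-PRT 0 of the 16 passed, and Plin4 and Slc27a1, a fatty acid transport protein, came nearest at −0.38 ± 0.09 and −0.39 ± 0.11 (edgeR adjusted p = 0.059 and 0.10). With the replicate block both passed in S-PRT, with edgeR adjusted p of 0.032 and 0.016, and 4 of the 16 were called, against 9.74% of all genes in that fit. Without F-PRT replicate 4 in the shared fit, Plin4 passed in S-PRT (edgeR adjusted p = 0.039), as 1 of 2 calls. That fit called 444 of 14792 tested genes in S-PRT.

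The 29 PPAR-regulated genes of fatty acid oxidation were led by Cpt1a, the carnitine palmitoyltransferase that admits long-chain fatty acids to mitochondria. Cpt1a was at 43.1 CPM in NR, 25.95 after S-PRT and 20.6 after F-PRT as group means. It fell by 0.73 ± 0.12 after S-PRT (edgeR adjusted p = 0.020) and by 1.07 ± 0.14 after F-PRT (edgeR adjusted p = 0.0024) on the log2 scale, and with the length trend removed the fall after F-PRT was by 0.87 (edgeR adjusted p = 0.0040). The S-PRT call of Cpt1a was lost without NR replicate 1, NR replicate 3, NR replicate 4 or S-PRT replicate 3 (edgeR adjusted p = 0.068, 0.058, 0.081 and 0.062), with log2 changes from −0.76 to −0.66. Of the 29, 1 fell after S-PRT, where 0.419% of all tested genes fell, and 2 fell after F-PRT, a share near or under the 8.67% of all tested genes. In either comparison 0 rose. The median log2 change of the list was −0.18 after S-PRT and −0.11 after F-PRT. With the replicate block, 7 of the 29 were called in S-PRT, against 9.74% of all genes in that fit. Without F-PRT replicate 4, 5 of the 29 were called in F-PRT, where 1382 of 14792 tested genes were.

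In the list of 19 genes of mitochondrial biogenesis under ERR and PGC-1, 3 fell after F-PRT, against 8.67% of all tested genes. They were Gabpa, a transcription factor also called NRF2 alpha, at −0.47 ± 0.10, the fission enzyme Dnm1l at −0.39 ± 0.10 and the fusion enzyme Opa1 at −0.40 ± 0.12 (edgeR adjusted p = 0.011, 0.018 and 0.031). Without F-PRT replicate 4 Dnm1l and Opa1 were at −0.31 and −0.28 (edgeR adjusted p = 0.058 and 0.094), without F-PRT replicate 2 at −0.37 and −0.40 (edgeR adjusted p = 0.057 and 0.075), and Opa1 also lost its call without NR replicate 1, 2 or 3 (edgeR adjusted p = 0.074, 0.076 and 0.058). The F-PRT median of the 19 was −0.03, and with the length trend removed 0 of the 19 were called. In S-PRT 0 of the 19 passed, with Gabpa at −0.32 ± 0.09 and cytochrome c, Cycs, at 0.34 ± 0.14 (edgeR adjusted p = 0.097 and 0.22). With the replicate block both passed in S-PRT, with edgeR adjusted p of 0.020 and 0.027. Of 15 citric acid cycle genes, 0 passed in either irradiated group. Citrate synthase, Cs, was at −0.35 ± 0.12 and the succinate dehydrogenase subunit Sdhb at 0.32 ± 0.13 after F-PRT (edgeR adjusted p = 0.052 and 0.097), and in S-PRT Sdha, another subunit, and Idh3g, a subunit of isocitrate dehydrogenase, were at −0.21 ± 0.10 and −0.14 ± 0.08 (edgeR adjusted p = 0.27 and 0.38). The cofactors Prox1 and Sirt1 were at −0.28 ± 0.12 and −0.21 ± 0.09 in S-PRT (edgeR adjusted p = 0.26 and 0.25), and Prox1 passed with the replicate block at an edgeR adjusted p of 0.049.

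**Figure D5:**
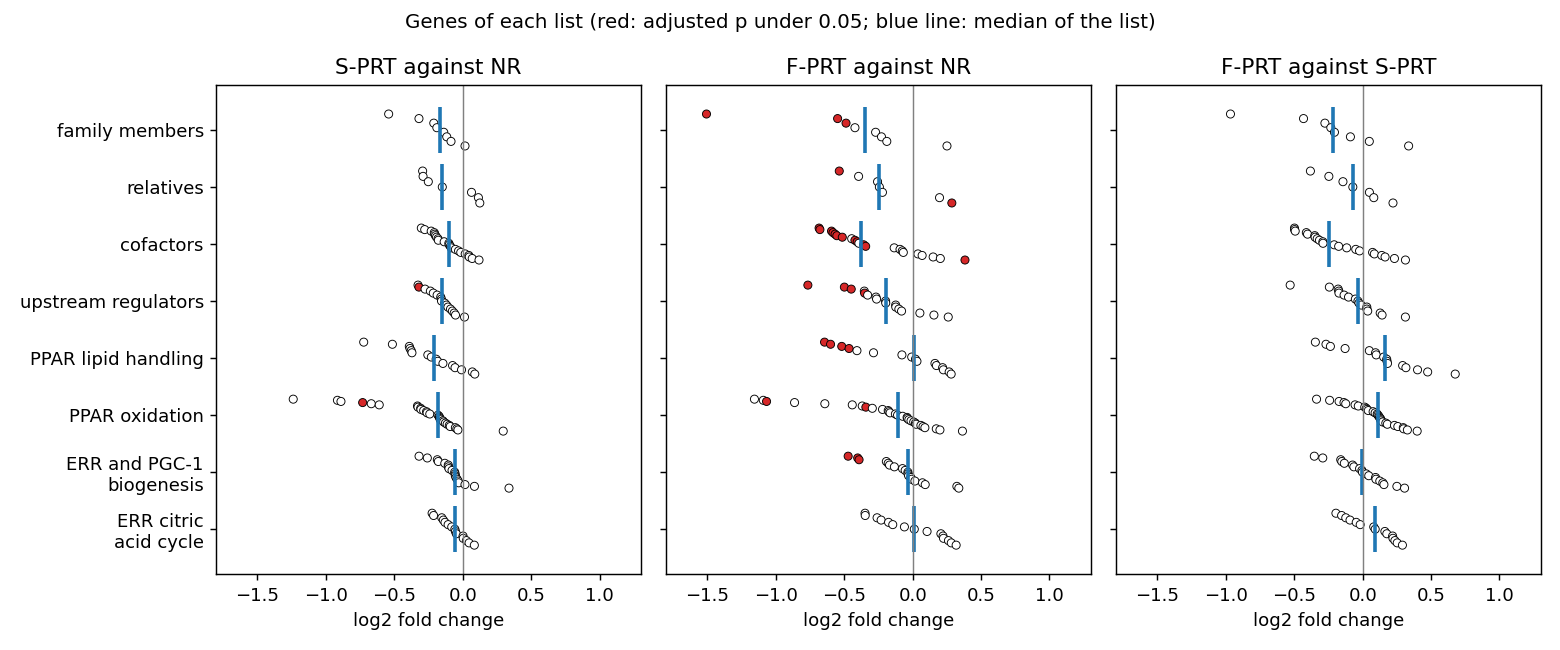
Log2 fold change (horizontal axis) of the genes in each list (rows) in the 3 comparisons (panels), with a point for each gene, red where it passed the edgeR test, and a blue line at the list's median; vertical offsets within a row only separate points. In F-PRT against NR the cofactor row has its median at −0.38, the citric acid cycle row has its median at 0.01 with no red point, and the panel of F-PRT against S-PRT has no red point.

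Between F-PRT and S-PRT 0 genes of these lists passed the edgeR test. The nearest were the cofactor Lpin1 at −0.40 ± 0.09 and Nrip1 at −0.50 ± 0.12, followed by Prkaa2 at −0.53 ± 0.14 (edgeR adjusted p = 0.18 each). G0s2, an inhibitor of lipolysis, was at 0.48 ± 0.13 (edgeR adjusted p = 0.18), and the AMPK subunit Prkag1 was at 0.31 ± 0.10 (edgeR adjusted p = 0.19). Cpt1a and Acsl1 were at −0.34 ± 0.13 and −0.35 ± 0.12 (edgeR adjusted p = 0.26 and 0.23), with overlapping groups. Most genes of their lists had the other sign. Positive were 22 of 29 oxidation genes (median 0.11) and 12 of 16 lipid uptake and storage genes (median 0.16). Over all 14556 tested genes 7330 were positive, with a median of 0.002. Etfb, Idh3b and Sdhb were at 0.40 ± 0.16, 0.25 ± 0.11 and 0.29 ± 0.13, and Opa1 and Dnm1l at −0.35 ± 0.11 and −0.29 ± 0.10 (edgeR adjusted p from 0.21 to 0.30).

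Likeness to other genes was measured as the root mean square difference of log2 CPM, each set to its own NR mean, over the 11 libraries and 10452 candidate genes. Ppara was most like Pdpr, a regulatory subunit of pyruvate dehydrogenase phosphatase, at 0.21, then Nr2c2 at 0.24 and Zbtb37 at 0.25. In F-PRT replicate 4, Ppara's nearest genes Pdpr and Nr2c2 stood at −3.35 and −3.36 relative to NR. Esrra was most like Idh3b at 0.056, and the adenylate kinase Ak1 stood at 0.062. Ppargc1a was most like Esrrg and Arhgap5, both at 0.096. Lcor was most like Sned1 at 0.19, Hipk2 at 0.22 and Sik2 at 0.28. These are descriptions over shared libraries and carry no test.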

How the data were processed

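Total RNA was turned into poly(A)-selected directional libraries, per the labels' protocols. The submitters' processing notes name FastQC, cutadapt, STAR, RSEM and edgeR, without versions. They list GRCm39 as well as mm10, so the build behind the counts is not settled and no gene coordinates are given from them. Per the file headers, the authors' deposited RSEM tables hold expected counts, TPM and isoform-weighted transcript lengths in bases (other columns were not used), and the use of strand in counting is not stated in the sources used here. RSEM splits reads that fit several genes, so a count need not be whole, and TPM are scaled to each library's sum, of which mitochondrial transcripts took a varying share.

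Expected counts were rounded to whole numbers. Of 55414 identifiers, 52081 matched a symbol, and the 3333 others held 0.0715% to 0.355% of counts and stayed in the fit. Genes were filtered with filterByExpr (minimum count 10, minimum total 15), scaled by TMM and tested with edgeR 4.0.16 (R 4.3.3) by the quasi-likelihood test in 1 fit of all 11 libraries with 8 residual degrees of freedom, Benjamini-Hochberg adjusted over 14556 genes, threshold 0.05. Standard errors were taken as the log2 change over the root of its F statistic. Sample titles gave the groups and the replicate numbers. Alternatives were DESeq2 1.42.0, limma 3.58.1 on log2(TPM + 1) and log2(TPM + 0.1), 1 surrogate variable from sva 3.50.0, removal of a lowess trend (span 0.3) with log2 transcript length per library, a replicate block and leaving out each library. No pair of libraries in a group was alike within sampling noise. The code was tested on simulated data.

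The members and lists were chosen with earlier results of these data known. Named beside the 10 members and 7 relatives (Rxrb, Rxrg, Esrrb, Pprc1, Perm1, Nr2c1, Lcorl) were, per list, comparison and direction, up to 3 called genes with the smallest p, or 2 where no gene was called, and the 3 genes most like Ppara, Esrra, Ppargc1a and Lcor; Vldlr and Mef2a, outside this rule, were named after their values were seen. A few genes that this rule names are not reported here. Over 11107 genes, deviations from the group mean correlated between same-numbered NR and S-PRT libraries at 0.27, 0.28, 0.36 and 0.18, each over 0.1, so the replicate number was taken to pair these groups. Some differently numbered pairs correlated more (S-PRT 1 with NR 2 at 0.44, S-PRT 4 with NR 3 at 0.37), so the libraries also split into numbers 1 and 2 against 3 and 4, and no label names a shared litter or day. F-PRT numbers did not pair with NR or S-PRT.  Intervals cover the spread between libraries.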

Additional observations from a re-analysis of the deposited data

Results flagged for a closer look

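Among 20 groups of 4 libraries, 1 for each of the 10 regulators in NR and in S-PRT, a library stood apart from the other 3 in 2 cases, both for Ppara. Ppara in NR replicate 2 was at 4.40 log2 CPM where the other NR libraries lay between 4.10 and 4.14, a gap of 0.858 of the group's range, above the critical value of Dixon's test for 4 samples. Ppara in S-PRT replicate 4 was at 3.87 log2 CPM where the other S-PRT libraries lay between 3.55 and 3.57, a gap of 0.918 of the range. Chance alone marks about 1 in 20 such groups. S-PRT replicate 4 also had the highest level of Nr2c2 and Lcor in its group and, at 0.27, the highest correlation with transcript length; without it the S-PRT log2 change of Ppara from NR was −0.63 (edgeR adjusted p = 0.34) against −0.54 with it.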

How the results depend on the processing

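The fall of Ppara after F-PRT kept its direction under every alternative run (log2 change −2.12 to −1.03) and passed the test in all but the 2 fits with a replicate block. With the replicate block, which the F-PRT numbers do not support as a pairing, it was −1.73 (edgeR adjusted p = 0.096), 0 of the 8 members were called after F-PRT and 29 genes were called in all; with the block and the length trend removed, 0 members and 55 genes. The calls of Esrrg and Ppargc1a were lost with library size scaling, both limma fits on TPM, the length trend removed and the block; the cause was not tested beyond the length trend. The block on NR and S-PRT called 1371 genes and 1 member (Ppara), and 942 and 1 with the length trend removed; it moved no other member's call.

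Genes called in S-PRT against NR, 188 in the fit of all 11 libraries, were 14 with library size scaling (11 higher and 3 lower, against 127 and 61), 605 with no filter, 2 and 3 with limma on log2(TPM + 1) and log2(TPM + 0.1), 104 with the length trend removed, 463 with 1 surrogate variable, 697 with DESeq2 and 557 with only the 2 groups in the fit (1 member called), and 26 to 444 leaving out 1 library. In F-PRT against NR, 2841 genes became 134, 71, 74 and 324 with library size, the 2 limma fits and the length trend removed, and 1 member was called in each; leaving out 1 library gave 1382 to 3784 genes and 1 to 4 members, and leaving out F-PRT replicate 4 with the length trend removed, an alternative chosen after seeing the data, gave 362 and 1. In F-PRT against S-PRT, 0 genes became 3 with DESeq2 size factors, 71 with no filter, 9 and 4 with limma, 7 with the surrogate variable, 168 with DESeq2 and 0 to 103 genes and 0 to 2 members leaving out 1 library. Library size scaling moved the median of all genes in S-PRT against NR from 0.0068 to −0.14. The cause of these shifts was not tested.

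Small log2 changes turned sign, and no gene that turned had passed the test except Prmt1. In S-PRT, library size and the limma fits on TPM + 1 and TPM + 0.1 took Ppard to −0.13, −0.27 and −0.30, Rxrb to −0.080, −0.12 and −0.13, Rxrg to −0.039, −0.091 and −0.094 and Lcorl to −0.0045, −0.039 and −0.073. Ppard was −0.0051 with the length trend removed, −0.0045 also without F-PRT replicate 4, and −0.0067 to 0.041 leaving out 1 library; Ppargc1a was 0.0001 with the surrogate variable. In F-PRT, Pprc1 was 0.12 and 0.15 in the limma fits, Rxra 0.029 with the length trend removed and 0.037 with the block too, where Lcorl was 0.015 and Prmt1 −0.018. Without F-PRT replicate 4 and the length trend, Rxrg was −0.0040, Perm1 0.0052 and Sdhb −0.046.

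Between F-PRT and S-PRT, library size and the limma fits took Rxra to 0.094, 0.11 and 0.12, Esrrb to 0.015, 0.038 and 0.048 and Perm1 to 0.098, 0.12 and 0.12, and the limma fits took Dnm1l to 0.026 and 0.027. With the length trend removed Pparg was −0.0046, Rxra 0.081 and Perm1 0.025. With the replicate block Pparg was −0.086, and with the length trend removed as well Pparg was −0.11, Rxra 0.19, Esrrb 0.056 and Perm1 0.11. Without F-PRT replicate 4 and the length trend, Pparg was −0.39, Rxra 0.031, Rxrg −0.014, Esrrb 0.11 and Perm1 0.11. Leaving out 1 library gave ranges of −0.39 to 0.29 for Pparg, −0.014 to 0.14 for Rxrg, −0.32 to 0.034 for Esrrb, −0.054 to 0.15 for Pprc1 and −0.18 to 0.050 for Perm1. Depth limits Lcor most, at 26 expected counts in F-PRT replicates 3 and 4.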
